A study of Mus musculus with 6 samples.

Results

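Nsg2, Nup210, Lclat1, Pink1, Galnt10 and Apoe are 6 genes with deep falls in cells separated as regulatory T cells (Treg) from mice in which Dnmt1 was deleted. They were chosen by a pair of measured values, a level above the median gene and a large negative difference between knockout and wild type. That difference is therefore described here without a test. They are 6 of 12393 genes measured, and 7 of 22690 probe sets, since Galnt10 has a pair of probe sets and each of the others has 1.

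Total RNA of magnetically separated mouse CD4+CD25+ cells was measured on 6 oligonucleotide arrays. The wild type group (3 arrays) came from C57BL6 mice. The knockout group (3 arrays), also labelled C57BL6, carried a floxed Dnmt1 gene and Cre recombinase under Foxp3, the genotype written fl-DNMT1/Foxp3cre. The Cre acts in cells that express Foxp3, the transcription factor that defines Treg, and the wild type mice are not described as carrying the Cre or a floxed allele, so effects of either and effects of losing Dnmt1 cannot be told apart. Age and treatment are not named for either group. The design text speaks of independent samples but not of separate animals, so the p-values given here rest on a spread between samples that may be partly technical. Values are log2 levels per probe set made with RMA, between 1.93 and 14.7, with array medians of 5.69 to 5.77, and precision is limited by 3 arrays per group.

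Markers of the separated cells were present in both groups. Cd3e, a chain of the T cell receptor complex, averaged 11.44 on wild type and 11.25 on knockout arrays, Cd4 averaged 9.33 and 9.11, and Il2ra, which encodes CD25, averaged 9.03 and 8.38 (1.56-fold lower, adjusted p = 0.0432 by limma). Dnmt1 itself was at 9.56, 9.43 and 9.50 with the gene intact and at 8.67, 8.89 and 9.34 on knockout replicates 1, 2 and 3 (difference -0.53, SE 0.16, limma adjusted p = 0.152). Without knockout replicate 3 that difference was -0.72 (limma adjusted p = 0.0433). A second Dnmt1 probe set differed by -0.72 over all arrays (SE 0.18, adjusted p = 0.109 by limma over all probe sets), and for both probe sets every knockout array was below every wild type array. The probe sets may lie outside the deleted part, and their positions were not used here. Foxp3 was at 9.47, 9.51 and 9.51 in wild type and at 9.28, 8.82 and 8.43 in the knockout (adjusted p = 0.142 by limma, and 0.0187 without knockout replicate 1, where the difference went from -0.66 to -0.87).

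The 6 genes act in separate parts of the cell. Nsg2 encodes a small membrane protein of vesicle trafficking known from neurons, and Nup210 encodes a membrane protein of the nuclear pore, the channel between nucleus and cytoplasm. Lclat1 encodes an acyltransferase that remodels the fatty acids of cardiolipin and phosphatidylinositol. Pink1 encodes a kinase that marks damaged mitochondria for removal (mitophagy). Galnt10 encodes one of the enzymes that attach N-acetylgalactosamine to serine and threonine of secreted and membrane proteins (mucin type O-glycosylation), and Apoe encodes apolipoprotein E, which carries lipids and binds receptors of the low density lipoprotein family. Dnmt1 copies methylation onto the new DNA strand at CpG, a cytosine followed by a guanine. The CpG content of the stretch around each listed start of transcription is therefore given first.

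RefSeq sequences of 300 bases around the start, mostly before it (build GRCm38.p6), were found for all 6 genes, with a pair of starts for Nsg2 and 3 for Apoe. For Nsg2, Nup210 and Apoe these stretches lie inside the outer RefSeq bounds of the gene, so a start at those bounds is not covered. The motif searched was CG, which reads the same on both strands. Of 32851 such stretches of the mouse genome, 94.6% held it at least once, and their median was 7. Nup210 held 41, more than 96.5% of all stretches, Galnt10 held 28, Lclat1 22 and Pink1 18. Nsg2 held 10 and 11 at its starts and Apoe 10 to 12. For 5120 measured genes at or above the median level, each by its richest start, the median was 23 and the quartiles 16 and 31. Nup210 thus lay above the upper quartile, Nsg2 and Apoe lay below the lower, and the other 3 lay between them. CpG-rich and CpG-poor starts were both present among the 6, and methylation itself was not measured.

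The sequences of the 3 deepest falls are shown because they span this range, with each CG in capitals. Their positions are chr11:32000169-32000468 (plus strand, the upstream of its starts), chr6:91116777-91117076 (minus strand) and chr17:73107735-73108034 (plus strand).
Nsg2: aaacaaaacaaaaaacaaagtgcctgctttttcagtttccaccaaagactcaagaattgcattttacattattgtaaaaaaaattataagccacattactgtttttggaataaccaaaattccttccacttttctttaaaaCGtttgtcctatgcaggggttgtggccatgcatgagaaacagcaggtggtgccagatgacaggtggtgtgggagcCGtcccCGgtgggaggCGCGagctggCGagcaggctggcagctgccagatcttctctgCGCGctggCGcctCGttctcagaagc
Nup210: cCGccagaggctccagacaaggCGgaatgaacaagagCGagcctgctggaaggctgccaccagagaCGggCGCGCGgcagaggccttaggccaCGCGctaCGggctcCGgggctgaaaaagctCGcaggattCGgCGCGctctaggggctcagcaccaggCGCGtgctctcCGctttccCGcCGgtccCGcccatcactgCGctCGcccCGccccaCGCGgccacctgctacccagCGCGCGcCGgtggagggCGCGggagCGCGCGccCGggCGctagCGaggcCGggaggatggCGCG
Lclat1: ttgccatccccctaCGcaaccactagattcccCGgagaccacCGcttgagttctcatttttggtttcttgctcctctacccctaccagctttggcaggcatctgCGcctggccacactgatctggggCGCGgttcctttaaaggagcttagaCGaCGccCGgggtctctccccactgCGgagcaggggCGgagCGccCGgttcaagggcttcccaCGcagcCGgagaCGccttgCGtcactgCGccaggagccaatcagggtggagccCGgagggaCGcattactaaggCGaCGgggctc
In Nsg2, 9 of the 10 CpGs lie in the last 150 bases, nearest the start, whereas Nup210 has 26 of its 41 there.

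Nsg2 had the deepest fall. Its level was 10.08, 10.10 and 10.19 on wild type replicates 1, 2 and 3 and 8.13, 7.62 and 9.11 on knockout replicates 1, 2 and 3. The wild type arrays lay within 0.11 of each other while the knockout arrays spanned 1.49, and 0.97 separated the highest knockout from the lowest wild type array. The means were 10.12 ± 0.06 and 8.29 ± 0.76 (SD, n = 3), a 3.57-fold lower level in the knockout. Knockout replicate 2 had 17.6% of the wild type mean, replicate 1 25.2% and replicate 3 49.6%, so the size of this fall differed most between arrays. In bulk samples like these, fewer cells that carry a transcript and less of it per cell cannot be told apart.

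Nup210 was at 10.74, 10.81 and 10.75 in wild type and at 9.94, 9.04 and 9.08 in the knockout. Here knockout replicate 1 was the highest of the knockout arrays and the other two were alike. The means were 10.77 ± 0.04 and 9.35 ± 0.51 (SD, n = 3), 2.67-fold lower, and knockout replicates 1, 2 and 3 had 56.3%, 30.2% and 31.0% of the wild type mean. The groups were 0.80 apart at their nearest arrays.

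By the brightest probe set of each gene, Lclat1 had the most even fall among these genes. It was at 9.40, 9.23 and 9.31 in wild type and at 8.22, 8.17 and 7.95 in the knockout. The knockout arrays spanned 0.27, against 1.00 between the nearest arrays of the groups. The means were 9.31 ± 0.09 and 8.11 ± 0.14 (SD, n = 3), 2.29-fold lower. Each knockout array had between 39.0% and 47.0% of the wild type mean.

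Pink1 was at 8.75, 8.74 and 8.57 in wild type and at 7.72, 8.01 and 7.24 in the knockout, with means of 8.69 ± 0.10 and 7.65 ± 0.39 (SD, n = 3), 2.05-fold lower. Knockout replicate 3 was the lowest, with 36.6% of the wild type mean, and replicate 2 the highest, with 62.3%. The nearest arrays of the groups were 0.56 apart.

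Both probe sets of Galnt10 were lower in the knockout. The brighter was at 8.17, 7.99 and 8.25 in wild type and at 7.04, 7.15 and 7.39 in the knockout, and its means of 8.14 ± 0.13 and 7.19 ± 0.18 (SD, n = 3) differed 1.92-fold. The other was at 7.58, 7.22 and 7.36 in wild type and at 6.58, 6.72 and 6.64 in the knockout (1.67-fold lower). Neither probe set had overlapping groups, and the nearest arrays were 0.60 and 0.50 apart. Knockout replicate 1 was the lowest by both, while replicate 3 was the highest by the brighter and replicate 2 by the other.

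Apoe had the smallest of these falls and the lowest measured level, by the brightest probe set of each gene. It was at 7.38, 7.60 and 7.62 in wild type and at 6.46, 6.95 and 6.46 in the knockout. The means were 7.54 ± 0.14 and 6.62 ± 0.28 (SD, n = 3), 1.88-fold lower, with 0.43 between the nearest arrays. Knockout replicates 1 and 3 had 47.4% and 47.3% of the wild type mean and replicate 2 had 66.6%. Every array of every one of the 6 genes lay above the median gene, whose mean level was 6.34.

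**Figure D1:**
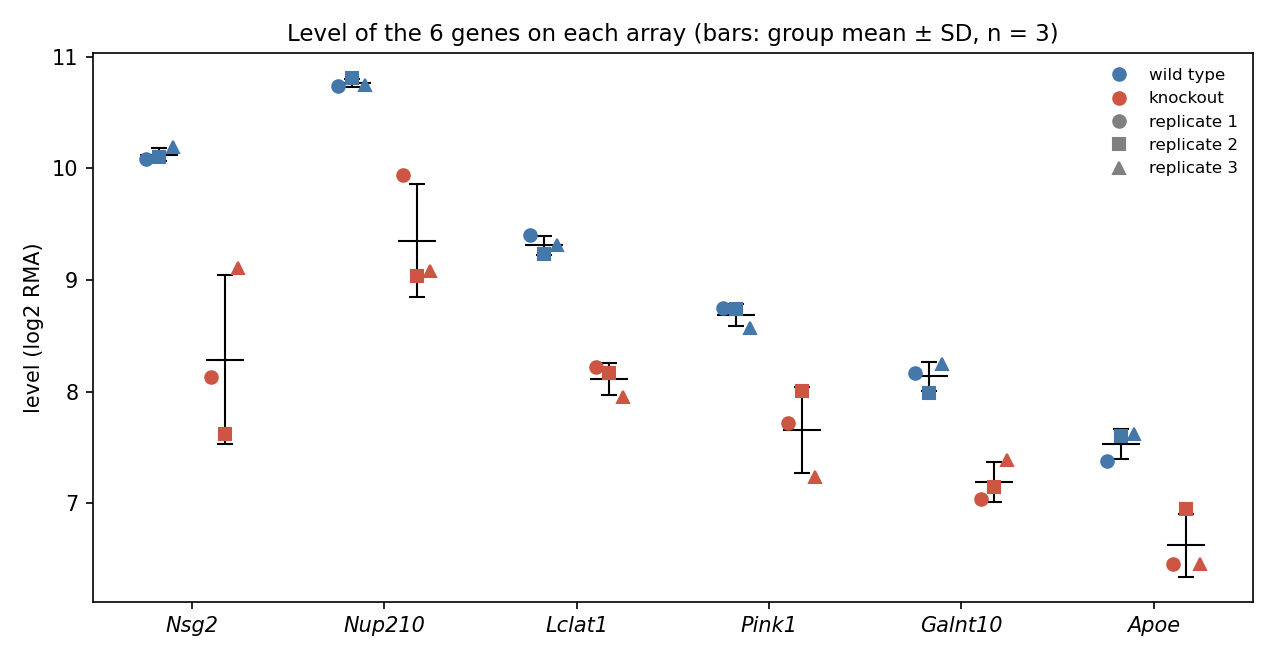
Level (log2 RMA) of each gene on the 3 wild type arrays (blue) and 3 knockout arrays (red), with marker shapes for the replicate number and black bars for the group mean ± SD. The groups of each gene are apart, and the knockout arrays of Nsg2 spread over 1.49 where those of Lclat1 spread over 0.27.

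The 6 genes did not share a lowest array. Knockout replicate 2 was lowest for Nsg2 and Nup210, replicate 3 for Lclat1 and Pink1, and replicate 1 for Galnt10, while replicates 1 and 3 were level for Apoe. Replicate 2 was in turn the highest for Pink1 and Apoe. The knockout spread of Nsg2 (SD 0.76) and Nup210 (0.51) stood well above the median of all genes (0.123), and that of Lclat1 (0.14) was close to it. In wild type the SD of the 6 genes, each by its brightest probe set, ran from 0.04 to 0.14 around a median of all genes of 0.094.

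**Figure D2:**
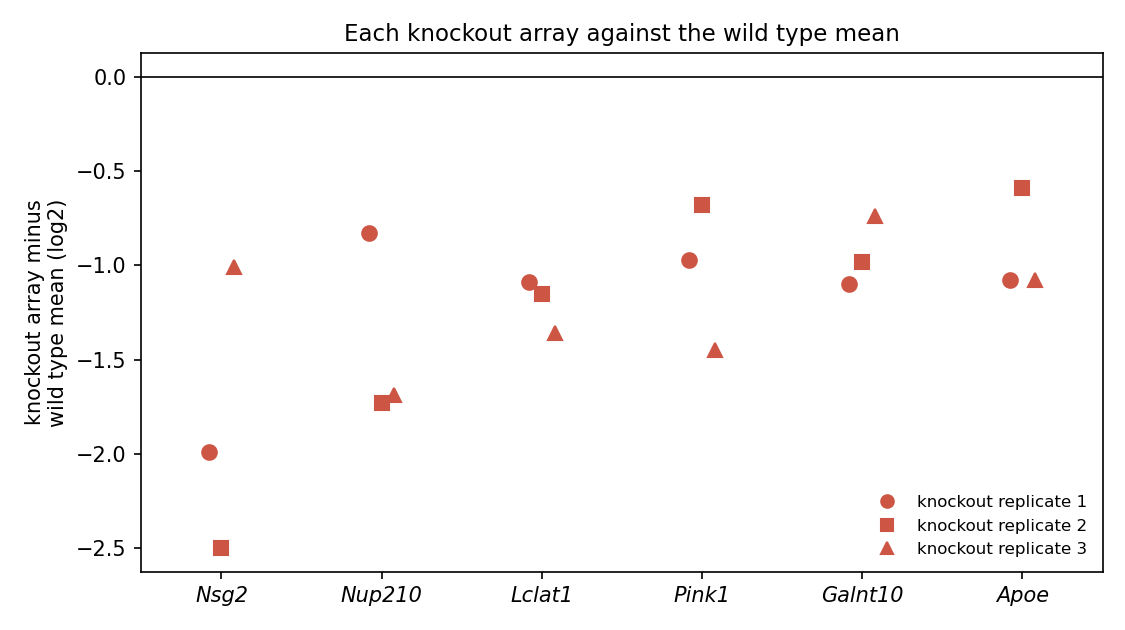
Difference of each knockout array from the wild type mean (log2) for the 6 genes, with a marker shape per knockout replicate and the line at 0 for the wild type mean. The points run from -0.59 for Apoe on replicate 2 to -2.50 for Nsg2 on replicate 2, and the order of the 3 arrays changes from gene to gene.

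Compared by the root-mean-square difference of their log2 values over the 6 arrays, each less its own mean, Lclat1 and Pink1 were as near to each other (0.20) as Pink1 and Apoe (0.20). Lclat1 and Galnt10 were 0.23 apart, and the widest gap was between Nsg2 and Pink1 (0.78). The same measure was taken against the other genes at or above the median level, with provisional gene symbols and antigen receptor segments left out. For Nsg2 the nearest was Ptger2, a receptor of prostaglandin E2, at 0.55, followed by Mga at 0.56. Mga was at 7.39 to 7.44 in wild type and at 6.23, 6.39 and 7.17 in the knockout, with the same highest array as Nsg2, but its other probe set differed by only -0.04 between the groups.

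Ptger2 (7.81, 7.62 and 7.38 in wild type, 6.59, 6.21 and 6.36 in the knockout) was also the nearest gene to Nup210 (0.25) and the second nearest to Lclat1 (0.16). Egr2, a transcription factor induced by antigen receptor signals, was second for Nup210 (0.27), and Spry1, an inhibitor of receptor kinase signalling, was nearest to Lclat1 (0.15). For Pink1 the nearest were Rgs16, a regulator of G protein signals, at 0.11, and the nuclear receptor gene Nr4a1 at 0.12. Rgs16 was at 7.45 to 7.51 on wild type arrays and at 6.63, 6.81 and 6.26 on knockout replicates 1, 2 and 3, which is the array order of Pink1. Cd86, which encodes a ligand of CD28 and CTLA-4, was nearest to both Apoe (0.11) and Galnt10 (0.18), at 7.06, 7.21 and 7.17 in wild type and 6.16, 6.52 and 6.34 in the knockout. Its other probe set differed by -0.22 against -0.80 for the brightest. Ttc28 was second for Galnt10 (0.19) and Rgs16 second for Apoe (0.15). Genes found this way have the group difference in common by construction.

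Among the 6197 genes at or above the median level, the 6 described here took places 1, 3, 7, 9, 12 and 15 by depth of fall. Of the 71 genes called lower in the knockout, 52 lay at or above that level. Over all genes tested, 0.573% were called lower by limma at an adjusted p under 0.05 and 14.0% had all knockout arrays below all wild type arrays. A choice by depth of fall favours both, so no call is given for the 6 genes and nothing is read from their lack of overlap. Whatever their call, the genes of like depth were Pdk1 (2.67-fold lower), Ncmap (2.59-fold), Rell1 (2.58-fold), Ptger2 (2.33-fold), Ighv14-2 (2.07-fold), Egr2 (1.95-fold), Id3 (1.94-fold), Spry1 (1.91-fold) and Cd200 (1.89-fold). Rgs16, just beyond Apoe at 1.88-fold, was 1.87-fold lower. Of these 10, Pdk1, Ncmap, Rell1, Ighv14-2 and Id3 were not called by limma (adjusted p 0.0712 to 0.308), and the groups overlapped for Pdk1 and Ighv14-2. Without knockout replicate 3 the difference of Pdk1 was -0.72 in place of -1.42 and that of Ncmap -0.68 in place of -1.38. Without knockout replicate 1 Pdk1 (limma adjusted p = 0.0293, difference -2.14), Id3 (limma adjusted p = 0.00258, difference -1.38) and Rell1 (limma adjusted p = 0.0234) were called, and Rell1 was called without knockout replicate 2 too (limma adjusted p = 0.0345). Ptger2, Egr2, Spry1, Cd200 and Rgs16 were called, and each lost its call without wild type replicate 1 or without wild type replicate 2 (limma adjusted p 0.0645 to 0.185).

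Of the genes in lists of the pathways around these 6, 0 were called lower and 2 higher by limma. Over all genes 0.573% were called lower and 1.33% higher, so these counts are near the background and nothing is read from them. Beside Nup210, 26 nuclear pore genes were measured, of which 0 rose and 0 fell by limma over all genes, and 3 had an unadjusted p under 0.05. Of these 26, 20 had a negative difference and 6 a positive one. Their median difference was -0.09, against -0.014 for all genes, with a range from -0.34 to 0.28. Of the other membrane proteins of the pore, Pom121 went from 9.09 to 8.89 and Ndc1 from 5.08 to 5.30. The 9 measured genes of the Y-shaped scaffold complex, such as Nup107 and Nup133, differed by -0.18 to 0.07. The lowest p-values were those of Nup98, with 6.71 ± 0.12 and 6.98 ± 0.05 on wild type and knockout arrays (adjusted p = 0.169 by limma), and Nupl1, a gene of the central channel, with 8.82 ± 0.06 and 8.58 ± 0.14 (limma adjusted p = 0.242). The difference of Nup210 on the same scale was -1.42.

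Nsg1, the closest relative of Nsg2 on the arrays, was at 5.23, 5.64 and 5.67 in wild type and at 5.32, 5.62 and 5.48 in the knockout. The groups overlapped, with a difference of -0.04 (SE 0.14, limma adjusted p = 0.911), and its other probe set differed by -0.09. Its brighter probe set lay below the median gene in both groups.

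Beside Lclat1, 18 genes of lysophospholipid acylation and cardiolipin synthesis were measured, of which 1 rose and 0 fell. The median difference was -0.02. The 12 other acyltransferases, among them the tafazzin gene Taz, which remodels cardiolipin in mitochondria, differed by -0.17 to 0.44, and 0 of them passed. The gene that rose was Cds2, which makes the CDP-diacylglycerol used for cardiolipin and phosphatidylinositol, from 7.15 ± 0.07 to 7.57 ± 0.04 (1.34-fold, limma adjusted p = 0.041), while its other 4 probe sets differed by -0.10 to 0.06. Leaving out any 1 of the wild type arrays, or knockout replicate 2 or 3, ended its call (adjusted p 0.0798 to 0.159), as did median centring (0.0601) and the mean of its probe sets, where the difference was 0.06. Mboat1, a lysophospholipid acyltransferase gene, had 6.26 ± 0.19 and 6.71 ± 0.12 (adjusted p = 0.112 by limma).

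Beside Pink1, 34 genes of mitophagy were measured, of which 0 rose and 0 fell, and 3 had an unadjusted p under 0.05. Of these 34, 21 had a negative difference and 13 a positive one, from -0.25 to 0.24 with a median of -0.05. Nbr1, an autophagy receptor gene, had 9.04 ± 0.08 and 8.79 ± 0.05 (limma adjusted p = 0.16), and Rhot2, a GTPase gene of mitochondrial transport, 7.49 ± 0.01 and 7.29 ± 0.02 (limma adjusted p = 0.186). The 5 genes of the LC3 and GABARAP family, which coat the forming autophagosome, differed by 0.05 to 0.24, and 5 genes of the outer membrane translocase by -0.16 to -0.09.

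Beside Galnt10, 22 genes of mucin type O-glycosylation were measured, of which 1 rose and 0 fell, with a median difference of 0.02. The 9 other Galnt genes differed by -0.47 to 0.25 and 0 passed. Galnt6 was the lowest, with 6.54 ± 0.09 and 6.06 ± 0.30 (limma adjusted p = 0.165), and was singled out after its value was seen. The gene that rose was St6galnac1, which caps the O-linked N-acetylgalactosamine with sialic acid. It was at 3.52, 3.70 and 3.70 in wild type, below the median gene, and at 5.67, 6.86 and 5.59 in the knockout (difference 2.40, SE 0.31, limma adjusted p = 0.0207). The call was lost without any wild type array (adjusted p 0.0906 to 0.097), where the difference was 2.34 to 2.43. Its relative St6galnac2 went from 3.93 ± 0.24 to 5.21 ± 0.69 (adjusted p = 0.102 by limma, and 0.0421 without knockout replicate 2, where the difference was 0.87). Knockout replicate 2 was the highest array for both, as it was for the neutrophil markers described below, whose part in this was not tested.

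Beside Apoe, 28 genes of apolipoproteins, their receptors and cholesterol efflux were measured, of which 0 rose and 0 fell by limma, and 5 had an unadjusted p under 0.05. Of these 28, 20 had a positive difference, and the median was 0.05. The 11 other apolipoprotein genes (Clu, which encodes apolipoprotein J, included) differed by -0.15 to 0.53. Pltp, the phospholipid transfer protein gene, went from 6.89 ± 0.28 to 7.69 ± 0.26 without passing (limma adjusted p = 0.0731). It was called with the mean of its probe sets (difference 1.02, limma adjusted p = 0.0371). Sorl1, a sorting receptor gene of the low density lipoprotein receptor family, had 8.91 ± 0.12 and 9.92 ± 0.57 (adjusted p = 0.105 by limma, and 0.0158 without knockout replicate 1, where the difference was 1.30). Over all 5 pathway lists and Nsg1, 0 genes were called lower, against the 0.573% of all genes called lower, and 2 higher, where 1.33% of all genes were.

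**Figure D3:**
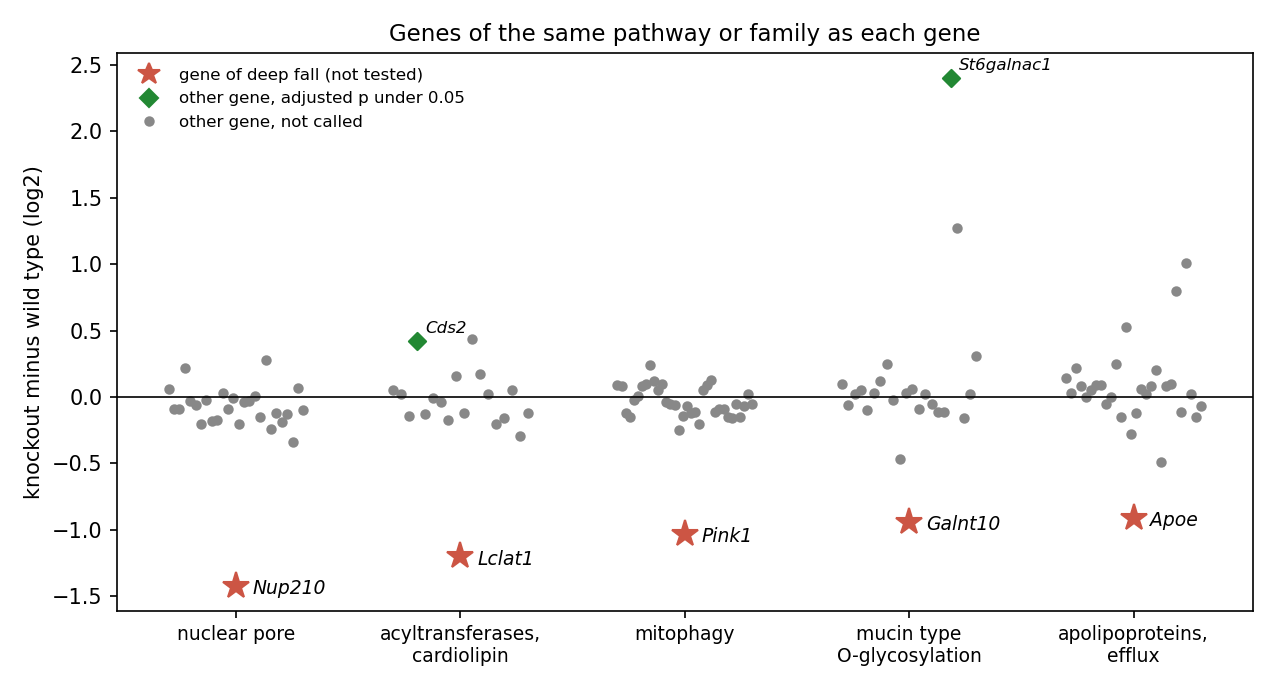
Difference between knockout and wild type (log2) for the measured genes of the 5 pathway lists, one column per list and one point per gene, with a star for the gene of deep fall in each list and diamonds for other genes called by limma. The stars lie between -0.91 and -1.42, and the other genes lie at -0.49 or above.

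The genes next to the 6 were compared too, as the nearest measured gene on each side in RefSeq gene order. Of these 12 genes, 0 rose and 0 fell by limma over all genes, and 2 had an unadjusted p under 0.05. Over all genes 1.33% were called higher and 0.573% lower, so nothing is read from these counts. Some of the 12 are far away: Ehd3 lies 561.5 kilobases from Lclat1, with 2 unmeasured coding genes between them. Lbh lies 166.0 kilobases from Lclat1, Il9r 128.3 from Nsg2 and Mfap3 111.6 from Galnt10. Apoe lies between Apoc1, which was at 4.10 ± 0.22 and 4.19 ± 0.08 on wild type and knockout arrays, and Tomm40, at 8.27 ± 0.06 and 8.18 ± 0.24. Ddost, an oligosaccharyltransferase gene beside Pink1, was at 9.95 ± 0.02 and 9.94 ± 0.07 (limma adjusted p = 0.97), and the cytidine deaminase gene Cda on the other side was at 3.59 and 3.58. Beside Galnt10, Mfap3 had 7.67 ± 0.08 and 7.38 ± 0.11 (adjusted p = 0.151 by limma), with 0.07 for the difference of its other probe set, and Sap30l 8.76 and 8.79. Beside Lclat1, Lbh had 8.19 ± 0.03 and 7.94 ± 0.22, and Ehd3 had 8.28 ± 0.02 and 8.80 ± 0.39 (limma adjusted p = 0.196). Iqsec1 (7.72 and 7.90) and Hdac11 (4.38 and 4.41) flank Nup210, and 4930524B15Rik (3.11 and 3.05) and the interleukin-9 receptor gene Il9r (3.90 and 3.76) flank Nsg2.

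Markers of other cells differed between the same arrays, and their part in the falls was not tested. Of 14 neutrophil markers measured, 14 averaged higher in the knockout (median difference 2.95) with an unadjusted p under 0.05, 13 had every knockout array above every wild type array, and 9 were called higher by limma, where 1.33% of all genes were. For this list and those below, the shares of all genes with an unadjusted p under 0.05, or with every knockout array higher, are not given here. Those counts therefore stand without a background. The sums of their linear values were 1683 to 2735 on wild type arrays and 14210 to 62923 on knockout arrays. Leaving out 1 array gave 0 or 1 called markers for each wild type array, 4 for knockout replicate 3 and 10 or 11 for the other two, and trend and robust variance gave 1. The list means were 8.12, 10.15 and 8.80 on knockout replicates 1, 2 and 3. Of 17 monocyte and macrophage markers 16 had a positive difference (median 0.80), 11 had an unadjusted p under 0.05, 7 had arrays that did not overlap, and 2, Slc40a1 and Cd14, were called higher (0 to 4 with 1 array left out, 0 without wild type replicate 1 or 3). Their sums were 831 to 1662 in wild type and 1828 to 4717 in the knockout. Of the markers of macrophages, Lyz2 (9.47 and 10.75 on wild type and knockout arrays) and Csf1r (7.55 and 8.08) averaged above the median gene (6.34) in both groups. Slc40a1 went from 4.99 to 6.90 (limma adjusted p = 0.0213), and Vcam1 averaged 4.70 and 6.40 (adjusted p = 0.128 by limma), both above the median gene in the knockout alone. The complement genes C1qa (4.66 and 5.62), C1qb (3.83 and 4.76) and C1qc (4.31 and 5.29) averaged below it in both groups, as did Adgre1, and no value on this scale is 0. These genes were named after their values were seen.

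Of 10 markers of NK and CD8 cells, 7 had an unadjusted p under 0.05, 1 was called higher and 1 lower by limma, with sums of 2824 to 3079 in wild type and 2361 to 4249 in the knockout. Ncr1, a receptor of NK cells, was 5.65-fold higher (adjusted p = 0.0243 by limma), and Klra8, another NK cell receptor, was 4.34-fold lower (adjusted p = 0.005 by limma). With 1 array left out, 0 to 4 of these markers were called higher, with 0 without any 1 wild type array or knockout replicate 3 and 4 without knockout replicate 1, and 1 was called lower each time. Of 5 erythroid markers 0 were called and 2 had an unadjusted p under 0.05, Alas2 (4.51 and 6.03) and Slc4a1 (5.15 and 6.31), and the sums were 102 to 134 in wild type and 149 to 330 in the knockout. Without knockout replicate 2 or 3, 1 erythroid marker was called higher. Of 9 B cell markers and 11 markers of naive T cells and recent thymic emigrants, 0 were called by limma and 0 had an unadjusted p under 0.05.

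The 11 measured T cell markers had list means of 10.80 to 10.90 with Dnmt1 intact and of 10.90, 10.62 and 10.56 on the knockout arrays in replicate order, and 0 passed in either direction by limma (1 with an unadjusted p under 0.05). All 11 had a negative difference (median -0.13). Of 11 Treg markers 9 had a negative difference (median -0.44). Every knockout array was below every wild type array for 6 of them, as for 14.0% of all genes. An unadjusted limma p under 0.05 was reached by 8, of which Itgae was higher in the knockout. By limma 3 were called lower, where 0.573% of all genes were: Il2ra, Ikzf2 (5.47 and 4.70, adjusted p = 0.0403) and Nrp1 (9.74 and 8.93, adjusted p = 0.0298). The number was 5 without knockout replicate 1, 1 without replicate 2, and 0 with any other array left out. The list had means of 9.12 to 9.22 in wild type and 9.17, 8.83 and 8.54 in the knockout. On knockout replicate 1 the means of both lists thus lay at the level of the wild type arrays. The 6 Treg markers without overlap, Foxp3 among them, were still below every wild type array there, so the mean hides differences between markers. The neutrophil list (8.12 against 6.03 to 6.44) and the monocyte and macrophage list (5.61 against 4.59 to 5.07) lay above wild type on that array. Since the groups of the 6 genes do not overlap, each was below every wild type array there too, as were 32.3% of all genes. Nothing is read from this, and the part of other cells was not tested. Nsg2 was 3.97-fold below the wild type mean there, Nup210 1.78-fold, Lclat1 2.13-fold, Pink1 1.96-fold, Galnt10 2.14-fold and Apoe 2.11-fold.

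**Figure D4:**
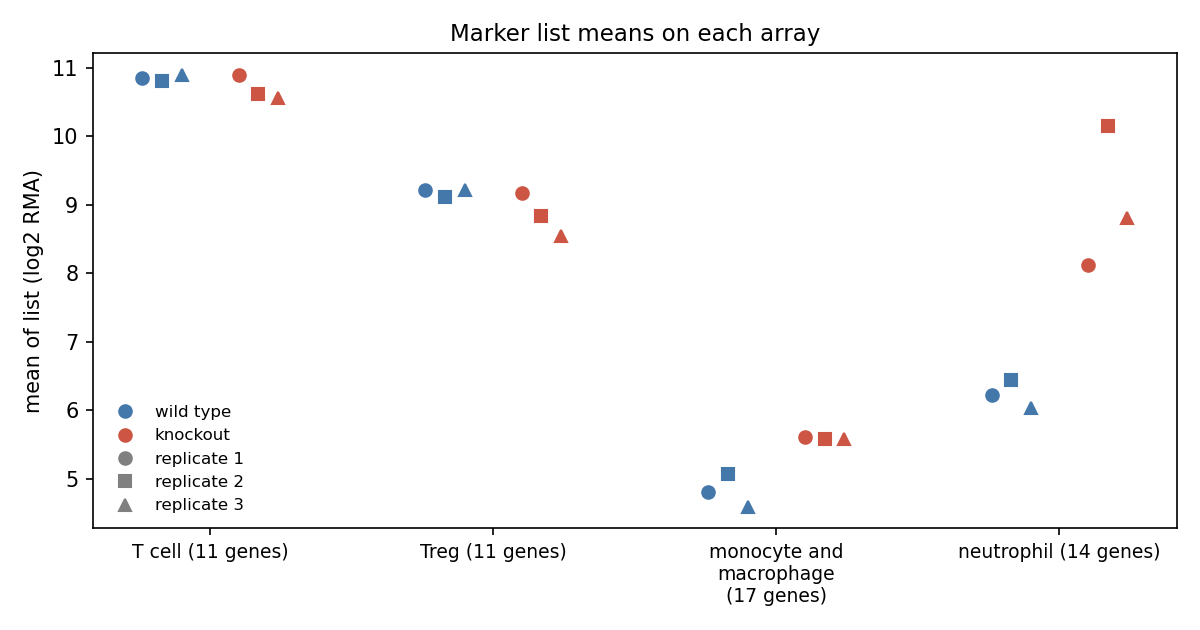
Mean level (log2 RMA) of the T cell, Treg, monocyte and macrophage, and neutrophil marker lists on each wild type array (blue) and knockout array (red), with a marker shape per replicate number. The neutrophil means were 8.12 to 10.15 in the knockout against 6.03 to 6.44 in wild type, and the T cell and Treg means of knockout replicate 1 lie among those of wild type.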

How the data were processed

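Log2 expression values per probe set were made by the authors with RMA, per the submitters' processing notes, its version and settings being unstated there. RMA normalises between arrays and compresses low levels, so folds of dim genes are understated. Probe sets were named through the platform annotation and a RefSeq table of GRCm38.p6, used for names and gene order: of 22690 probe sets, 64 were controls, 20380 had 1 symbol, 691 several and 1555 none. Each gene took its brightest probe set, giving 12393 genes. The groups were compared with limma 3.58.1 in R 4.3.3 (lmFit, eBayes, no filter, two-sided, Benjamini-Hochberg over all genes, called under 0.05). The test was tried on simulated data.

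The 6 genes and the lists were chosen with earlier results of these data known. Named genes are the 6, the lowest p-values of each list, the genes next to the 6 or of like pattern, those of like depth, Dnmt1 and Foxp3. Alternatives were other normalisation, filter, probe set and variance choices, array weights, a replicate block and leaving out each array. Figures used matplotlib 3.10.9.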

Additional observations from a re-analysis of the deposited data

How the results depend on the processing

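The groups of the 6 genes do not overlap, so leaving out an array could not change the sign of a difference, and its sign there is no sign of stability. With 1 array left out, Nsg2 ranged from -2.25 to -1.50, Nup210 from -1.71 to -1.26, Lclat1 from -1.25 to -1.12, Pink1 from -1.21 to -0.83, Galnt10 from -1.04 to -0.86 and Apoe from -1.08 to -0.83. Under the 9 other settings the ranges were -1.87 to -1.66, -1.45 to -1.37, -1.23 to -1.15, -1.12 to -0.98, -0.97 to -0.84 and -0.96 to -0.87 in the same order. Counts over all genes moved more: with 1 array left out, 17 to 358 genes were called higher and 3 to 186 lower, and the number lower was 113 with trend and robust variance and 110 with array weights. With the replicate block 35 were lower. Same-numbered arrays did not deviate together (correlations of -0.08, 0.15 and -0.04 across genes), so the numbers were not taken as pairs. The acyltransferase and cardiolipin list had 0 higher with median centring, the mean of probe sets and the replicate block, and 0 to 1 with 1 array left out. The O-glycosylation list had 0 higher without the dimmest 40% of genes, which leaves out St6galnac1, and 0 to 2 higher and 0 to 1 lower with 1 array left out. The apolipoprotein list had 1 higher with the mean of probe sets and with the replicate block, and 0 to 1 with 1 array left out. The causes were not tested. Of 578 values of 39 other named genes under these alternatives, 41 lost and 14 gained a call, with no called gene changing sign. Limits are 3 arrays per group and, for dim genes such as St6galnac1, the floor of RMA values.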
